A study of Mus musculus with 24 samples.

Results

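The 10 growth factor receptor tyrosine kinases described here were Egfr, Erbb2, Erbb3, Met, Fgfr1, Fgfr2, Fgfr3, Fgfr4, Insr and Igf1r, followed across liver tumours and liver tissue of B6C3F1 mice. They were chosen by name: a probe set belonged to the set when the platform annotation gave it 1 of these gene symbols. This gave 33 of 45101 probe sets, of which 30 passed a filter on low values, and all 10 genes were among the 14086 genes tested.

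Each of the 4 groups held 6 arrays of whole liver tissue. HB was hepatoblastoma, a liver tumour of embryonal type, and HCC was hepatocellular carcinoma next to it. BDCA_nontumor was non-tumour liver next to the tumours (BDCA_Normal in the titles, where the first part is not spelled out), and vehicle_normal was normal liver of vehicle control mice. The protocols describe a 2 year bioassay in which male and female mice received Ginkgo biloba extract in corn oil by gavage, and they give no dose, sex or animal for a sample. They also mention carcinomas that arose in vehicle controls, so the exposure behind each tumour array is not known from the labels. No label states that the arrays of a group come from different animals. The p-values therefore rest on the spread among these arrays alone, some of which may be technical.

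Receptor tyrosine kinases are proteins of the cell surface that bind a growth factor outside the cell and, once paired, phosphorylate tyrosines on their own inner part. Adaptor proteins such as Grb2 and the insulin receptor substrates dock there and pass the signal to the Ras-MAPK and PI3K-Akt pathways. In liver, EGFR and MET are known for their part in regeneration, FGFR4 with its co-receptor beta-klotho for the control of bile acid synthesis by the gut hormone FGF15, and INSR for the control of glucose and lipid metabolism. ERBB2 binds no ligand itself and ERBB3 has little kinase activity, so both act in pairs with other members of the family.

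As given below, Egfr differed among the control arrays and Erbb2 rose in HB. Fgfr4 fell in HB, and in HCC 2 of its 5 probe sets were called lower. Promoter sequences are shown for these 3 members. Each runs from 250 bases before to 50 bases after the RefSeq transcription start on GRCm38.p6, on the plus strand, and capitals mark the GC box motif GGGCGG or its reverse complement CCGCCC.
Egfr, chr11:16751953-16752252: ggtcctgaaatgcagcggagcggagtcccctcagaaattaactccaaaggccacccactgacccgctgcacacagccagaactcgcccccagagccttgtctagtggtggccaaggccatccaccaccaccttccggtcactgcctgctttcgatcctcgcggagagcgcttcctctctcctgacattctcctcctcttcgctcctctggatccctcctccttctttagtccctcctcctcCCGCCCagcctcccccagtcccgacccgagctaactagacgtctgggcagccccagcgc
Erbb2, chr11:98412234-98412533: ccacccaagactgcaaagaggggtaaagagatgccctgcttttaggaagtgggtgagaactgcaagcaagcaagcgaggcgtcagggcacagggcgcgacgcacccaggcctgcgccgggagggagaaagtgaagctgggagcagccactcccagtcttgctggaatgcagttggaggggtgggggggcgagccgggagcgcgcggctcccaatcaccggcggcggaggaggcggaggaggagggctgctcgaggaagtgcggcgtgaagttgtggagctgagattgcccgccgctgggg
Fgfr4, chr13:55152568-55152867: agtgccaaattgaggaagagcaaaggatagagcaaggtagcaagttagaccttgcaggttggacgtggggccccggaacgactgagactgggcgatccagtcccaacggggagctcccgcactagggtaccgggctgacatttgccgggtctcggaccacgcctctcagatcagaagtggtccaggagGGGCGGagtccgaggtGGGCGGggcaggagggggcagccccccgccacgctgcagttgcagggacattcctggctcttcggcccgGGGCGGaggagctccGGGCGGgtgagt
The Egfr window held 1 GC box, the Erbb2 window 0 and the Fgfr4 window 4, and none of these 3 windows held the TATA motif TATAAA on either strand. Of 32851 promoters of the same length in the table, 35.7% held a GC box and 13.6% a TATAAA. GC content was 62.3% in the Egfr window, 66% in the Erbb2 window and 65.3% in the Fgfr4 window, against a median of 52.7% over all promoters. Of the 10 members, 7 had an entry: Met, Fgfr2, Fgfr3 and Igf1r besides those shown. These letters describe the windows only, since no binding or methylation was measured.

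Values were MAS5 intensities, on which each array had a trimmed mean of 500, and the median intensity of an array was 144 to 202 in HB against 75.8 to 145 in the other groups. The log2 ratio of 3' to 5' signal of the Gapdh control, a measure of RNA quality, was 1.08 to 1.66 in HB and 1.67 to 2.11 in vehicle_normal, without overlap. It was 1.22 to 2.37 in BDCA_nontumor and 0.88 to 2.15 in HCC. For the Actb control HB (0.11 to 0.36) and vehicle_normal (-0.04 to 0.25) overlapped. The part of RNA quality in the receptor values was not tested. HCC replicates 3 and 4 lay far closer together than any other pair within a group and entered the tests as 1 sample, so HCC had n = 5 and the other groups n = 6. The female transcript Xist was above 1000 on vehicle_normal replicates 1, 2, 4 and 5 and on BDCA_nontumor replicate 6, and at most 99.3 on the other arrays. HB replicates 4 and 5 carried a summed intensity of hepatocyte markers of 65345 and 46316, against 544 to 3140 on the other HB arrays. In tissue, fewer cells of a type and less RNA per cell cannot be told apart.

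In HB, 7 of the 10 receptors passed the test against vehicle_normal: Erbb2 and Fgfr1 were higher, and Egfr, Erbb3, Fgfr3, Fgfr4 and Insr were lower. The test was limma's moderated test with Benjamini-Hochberg adjustment over all tested genes and a threshold of 0.05, and fold changes are on the log2(intensity + 16) scale. The same comparison called 60.3% of all tested genes, 37.2% higher and 23.1% lower, so a share of 7 in 10 lies near the background. The median log2 difference was -0.72 over the 10 receptors and 0.34 over all genes. For 6 receptors, all but Fgfr1 among those called, the HB arrays did not overlap the vehicle_normal arrays, as was so for 37.6% of all genes. Without HB replicates 4 and 5 the count was again 7.

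**Figure D1:**
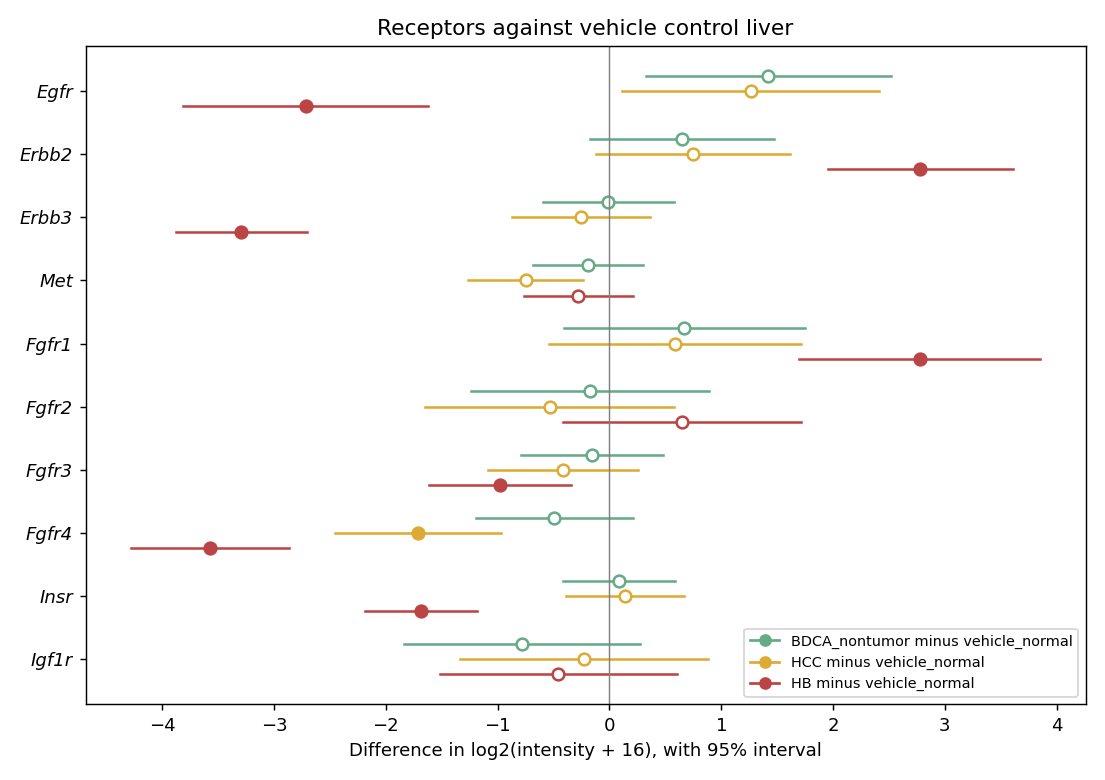
Log2 difference of each of the 10 receptors from vehicle_normal in HB, HCC and BDCA_nontumor, with 95% confidence intervals. Filled points passed an adjusted p of 0.05: 7 in HB, 1 in HCC (Fgfr4) and 0 in BDCA_nontumor.

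Within the EGF receptor family, HB had low Egfr and Erbb3 and raised Erbb2. Erbb3, the kinase-poor partner that binds neuregulins, measured 875, 810, 363, 1015, 792 and 325 on the 6 HB arrays and 4520 to 7690 on the vehicle_normal arrays. Every HB array lay below every array of the other 3 groups, since the lowest HCC value was 3231 and the lowest BDCA_nontumor value 4325. The log2 difference from vehicle_normal was -3.29 ± 0.28 (SE, adjusted p = 3.06e-10 by limma), or 9.80-fold lower, and both Erbb3 probe sets were called lower.

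Egfr, the receptor of EGF and TGF-alpha, measured 293, 21.2, 192, 159, 465 and 472 in HB and 852, 556, 4364, 735, 1021 and 4700 in vehicle_normal. All HB arrays lay below all vehicle_normal arrays, but the vehicle_normal arrays themselves fell apart, with replicates 3 and 6 far above the other four. The HB log2 difference was -2.72 ± 0.53 (SE, adjusted p = 1.03e-04 by limma), or 6.58-fold lower. Values were 2074 to 5783 in HCC and 2757 to 5216 in BDCA_nontumor, both within the span of the vehicle_normal arrays or slightly above it. Mean Egfr was higher in these groups than in vehicle_normal by 1.26 (HCC, adjusted p = 0.177) and 1.42 (BDCA_nontumor, adjusted p = 0.333) on the log2 scale, neither past the threshold.

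The 4 vehicle_normal arrays with Xist signal held Egfr at 556 to 1021, and the 2 without it at 4364 and 4700. Of 7 Egfr probe sets, 6 had both arrays without Xist above all 4 with it. These probe sets read 1 gene on the same arrays and are not independent. Among all tested genes, each read by 1 probe set, 14.1% separated these arrays in either direction. Sex-biased liver genes split the same arrays: Cyp2d9, higher in males, measured 509 to 910 with Xist signal and 16332 to 21432 without, and Cyp2b13, higher in females, 6749 to 7898 with and 143 to 333 without. BDCA_nontumor replicate 6, with Xist signal, had Egfr at 3271, inside the range of its group. Without the 5 arrays that carried Xist signal, the HB difference was -4.40 (adjusted p = 1.97e-05), the HCC difference -0.42 (adjusted p = 0.842) and the BDCA_nontumor difference -0.22 (adjusted p = 0.970). Those fits had 2 vehicle_normal arrays, and the part of sex in the Egfr values was not tested.

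**Figure D2:**
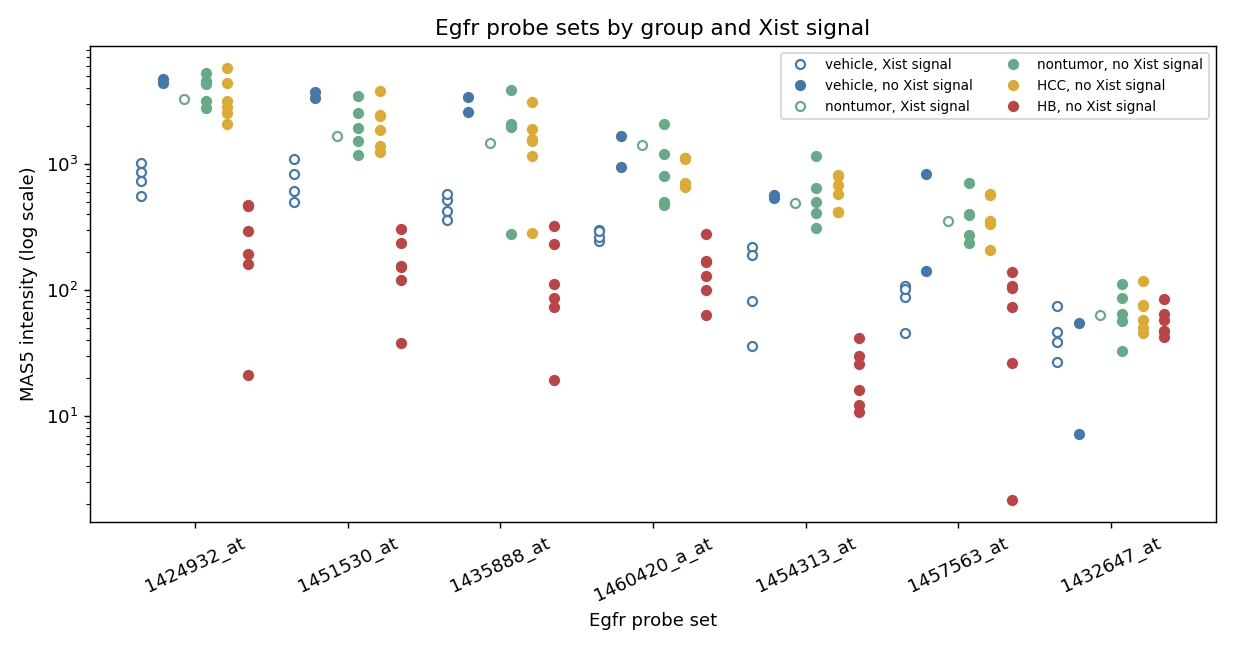
Intensity (log axis) of the 7 Egfr probe sets on the 24 arrays by group, with open circles for arrays with Xist signal. In vehicle_normal the 2 arrays without Xist signal lay above the other 4 in 6 of the 7 probe sets.

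The Egfr probe sets did not all report the HB difference. Tested one by one, 5 of 7 were called lower in HB against vehicle_normal, with log2 differences from -2.96 to 0.44, and 6 of 7 were called lower against BDCA_nontumor. A dim probe set at 42.6 to 84.3 in HB and 7.23 to 74.8 in vehicle_normal was among those not called.

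Erbb2, the ligandless partner kinase, was read by 1 probe set. It measured 205, 89.4, 280, 272, 197 and 261 in HB, against 12.9, 68.2, 3.84, 10.6, 13.9 and 12.8 in vehicle_normal, 10.7 to 71.1 in BDCA_nontumor and 7.17 to 88.9 in HCC. All 6 HB arrays lay above the filter value of 66.3 and above every other array, and 5 of 6 arrays in each of the other groups lay below that value. Since the filter asked for 6 arrays above it, Erbb2 was tested only because HB was high, so its call among the 7 is not independent of the filter. The log2 difference from vehicle_normal was 2.78 ± 0.40 (SE, adjusted p = 1.72e-06 by limma). Because the other groups were near the floor of the array, its size depended on the pseudocount and was 3.78 with 1 and 1.73 with 64 added before the logarithm.

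**Figure D3:**
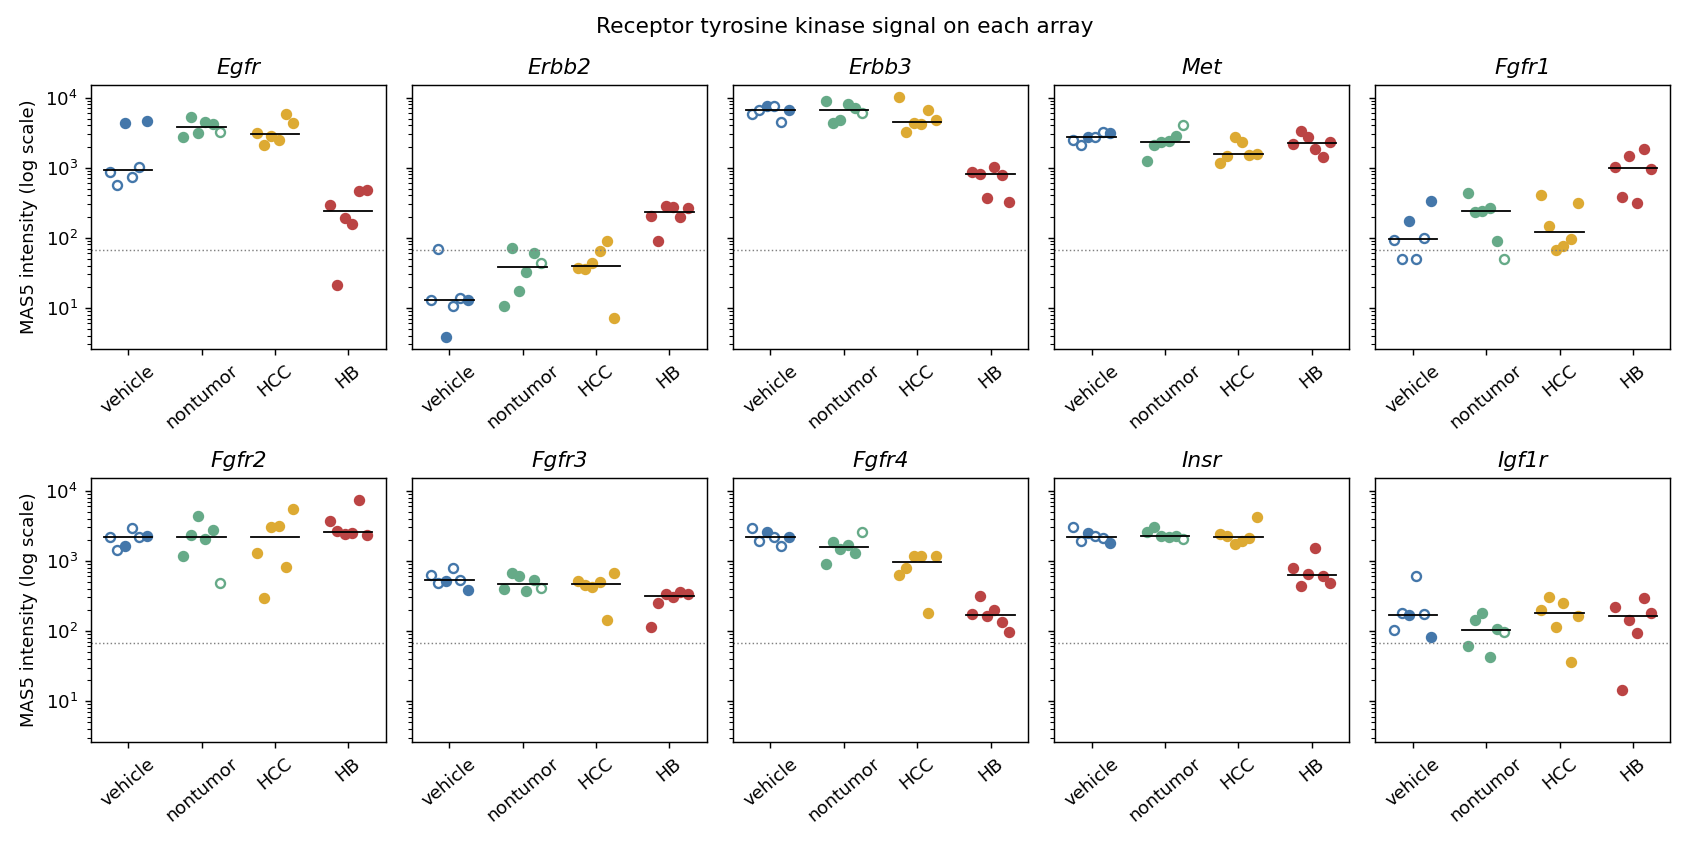
Intensity (log axis) of the 10 receptors on the 24 arrays by group. Bars are group medians, open circles are arrays with Xist signal and the dotted line is the filter value of 66.3. HB does not overlap the other 3 groups for Erbb2, Erbb3, Egfr and Insr. For Erbb2 the lowest HB array (89.4) lies barely above the highest HCC array (88.9).

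Met, the receptor of hepatocyte growth factor, showed much overlap between the groups. It measured 1411 to 3315 in HB (median 2263), 1161 to 2714 in HCC (median 1541), 1262 to 4011 in BDCA_nontumor (median 2353) and 2073 to 3260 in vehicle_normal (median 2708). No pair of groups was separated. The HB difference from vehicle_normal was -0.28 (95% confidence interval -0.77 to 0.21, adjusted p = 0.326), and the HCC difference was -0.75 (-1.27 to -0.23, adjusted p = 0.0671). Of the 2 Met probe sets, 1 was called lower in HCC when each was tested on its own, and the mean of both was called at -1.01 (adjusted p = 0.0115). Tested in this way, 1 of the 2 was called higher in HB against HCC, with log2 differences of 0.47 and 0.74.

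The FGF receptors went separate ways in HB. Fgfr4, the form of the hepatocyte, measured 177, 312, 164, 197, 133 and 96.2 in HB, 623, 778, 1183, 1156, 182 and 1155 in HCC, 904, 1885, 1482, 1657, 1299 and 2571 in BDCA_nontumor and 2955, 1920, 2547, 2185, 1604 and 2182 in vehicle_normal. HB and HCC both lay wholly below vehicle_normal, and HCC replicate 5, at 182, lay among the HB arrays. The log2 difference from vehicle_normal was -3.57 ± 0.34 in HB (SE, adjusted p = 2.06e-09 by limma, 11.9-fold lower), and 4 of 5 Fgfr4 probe sets were called lower.

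Fgfr1, the form common in mesenchymal and many other tissues, measured 1014, 384, 1471, 317, 1828 and 959 in HB and 93.8, 49.0, 171, 49.6, 99.4 and 338 in vehicle_normal. HB replicate 4, at 317, lay under vehicle_normal replicate 6, at 338, so the groups overlapped at 1 array on each side. The log2 difference was 2.77 ± 0.52 (SE, adjusted p = 6.63e-05 by limma), with both kept probe sets called higher. On 1 of these 2 probe sets both vehicle_normal arrays without Xist signal held more Fgfr1 than the other 4, and on the other probe set they overlapped (45.3 and 75.8 without, 18.6 to 67.1 with). Without the Xist arrays the difference was 1.72 (adjusted p = 0.0431).

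Fgfr3 measured 112 to 360 in HB and 382 to 784 in vehicle_normal, without overlap, a log2 difference of -0.98 ± 0.31 (SE, adjusted p = 0.00843 by limma). This was the smallest of the 7 called differences. Of its 2 probe sets 1 was called, and without the arrays with Xist signal the difference was -0.71 (adjusted p = 0.235). Fgfr2, which in other epithelia answers FGF7 and FGF10, measured 2341 to 7419 in HB and 1419 to 2896 in vehicle_normal, a log2 difference of 0.65 (95% confidence interval -0.41 to 1.71, adjusted p = 0.285). In HCC its arrays ran from 294 to 5495, the widest span of the 4 groups.

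Insr, the insulin receptor, measured 789, 443, 641, 1524, 613 and 477 in HB and 1792 to 2993 in vehicle_normal. Every HB array lay below every array of the other groups, the lowest of which was HCC at 1725. The log2 difference was -1.68 ± 0.24 (SE, adjusted p = 1.89e-06 by limma), or 3.21-fold lower, and all 3 Insr probe sets were called lower. Its relative Igf1r, the receptor of IGF1 and IGF2, measured 14.4 to 294 in HB and 81.5 to 614 in vehicle_normal and was called in no comparison. Its HB difference was -0.46 (95% confidence interval -1.51 to 0.60, adjusted p = 0.458), a wide interval at this low signal.

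In HCC, 1 of the 10 receptors, Fgfr4, passed the test against vehicle_normal, a comparison that called 7.23% of all tested genes, 4.37% higher and 2.87% lower. Its log2 difference was -1.71 ± 0.36 (SE, adjusted p = 0.00436 by limma), or 3.27-fold lower. All 6 HCC arrays lay under the lowest vehicle_normal array, and 5.08% of all genes had groups without overlap in either direction. Only 2 of 5 Fgfr4 probe sets were called, and with the mean of all of them the difference was -0.78 (adjusted p = 0.143). Without the arrays with Xist signal it was -1.82 (adjusted p = 0.102), with vehicle_normal at n = 2. The 9 other receptors did not pass, and the median over all 10 was -0.24 against 0.08 over all genes.

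In BDCA_nontumor, 0 of the 10 receptors passed against vehicle_normal by limma, where 0.0994% of all tested genes did, 0.0781% higher and 0.0213% lower. No receptor had groups without overlap there, as 1.22% of all genes had. At an unadjusted p under 0.05 the count was 1, for Egfr (95% confidence interval 0.32 to 2.51). The other receptors had intervals that included 0, among them Fgfr4 (-1.20 to 0.21) and Igf1r (-1.84 to 0.27).

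HB differed from BDCA_nontumor in the same 7 receptors as from vehicle_normal, with 56.5% of all tested genes called, 34.1% higher and 22.4% lower. These comparisons share the HB arrays. Again 6 of the 7, all but Fgfr1, did not overlap, as did 32.5% of all genes. Egfr was -4.14 ± 0.53, 17.6-fold lower (adjusted p = 3.23e-07 by limma), Erbb3 -3.28, Fgfr4 -3.08, Insr -1.77 and Fgfr3 -0.82, and Erbb2 was 2.13 and Fgfr1 2.10 higher. Against HCC, where 50.5% of all genes were called, 28.9% higher and 21.6% lower, HB differed in 6 receptors. In 4 of them, Egfr, Erbb2, Erbb3 and Insr, the groups did not overlap, as in 28.6% of all genes. Egfr was -3.98 ± 0.56, 15.8-fold lower (adjusted p = 1.72e-06 by limma), Erbb3 -3.04, Fgfr4 -1.86 and Insr -1.82, with Erbb2 2.03 and Fgfr1 2.19 higher. Fgfr3 at -0.57 (adjusted p = 0.150) and Fgfr2 at 1.18 (adjusted p = 0.0712) did not pass there. HCC differed from BDCA_nontumor in 0 of 10 receptors by limma, while 1.82% of all genes were called, 1.31% higher and 0.511% lower, and the nearest was Fgfr4 at -1.22 (adjusted p = 0.0810). No receptor lacked overlap there, against 1.52% of all genes. Before adjustment p by limma was 0.00231 for Fgfr4 (95% confidence interval -1.96 to -0.48) and 0.0344 for Met (-1.08 to -0.04). The share of all genes at such unadjusted levels was not counted.

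Ordered by group mean, Erbb3, Fgfr3 and Fgfr4 had the order vehicle_normal, BDCA_nontumor, HCC and HB from high to low. The neighbours vehicle_normal and BDCA_nontumor did not pass for any of these 3 (adjusted p = 0.994, 0.913 and 0.657), nor did BDCA_nontumor and HCC (adjusted p = 0.818, 0.824 and 0.0810). HCC and HB passed for Erbb3 (adjusted p = 5.11e-09) and Fgfr4 (adjusted p = 1.24e-04) but not for Fgfr3 (adjusted p = 0.150).

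Of 10 EGF family ligands on the list 7 were tested. In HB against vehicle_normal 2 were called higher and 1 lower, with a median of 0.05, where 37.2% of all genes were called higher and 23.1% lower. The balance moved with the scaling, to 1 higher and 2 lower (median -0.49) after quantile normalization and 2 and 2 (median -0.31) after median centring. Without the arrays with Xist signal it was 2 higher and 0 lower, and without HB replicates 4 and 5 it was 2 and 2. Hbegf rose by 1.57 ± 0.28 (SE, adjusted p = 3.59e-05 by limma), from 60.7 to 110 in vehicle_normal to 220 to 282 in HB. Nrg1, a ligand of ERBB3, was higher by 1.65 (adjusted p = 0.00315, and 0.102 after quantile normalization), and Nrg4 was lower at -1.71 (adjusted p = 0.00586, and 0.0767 with the Xist arrays left out). Tgfa, at -0.07 (adjusted p = 0.918), and Egf, at 0.05 (adjusted p = 0.920), did not pass. In HCC, Btc at 1.75 (adjusted p = 0.0332) and Nrg1 at 1.67 (adjusted p = 0.0339) were called, and each lost the call in 9 of its alternatives.

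Around Met, the ligand gene Hgf did not pass in HB (-0.93, adjusted p = 0.293), while proteases that cut pro-HGF into its active form were called in both directions. The list also held Hgf itself and protease inhibitors. Of its 7 genes, all tested, 1 was higher and 4 were lower, with a median of -2.15. Over all genes 60.3% were called and 23.1% were lower. The lower genes included the inhibitor Spint2, at -2.15 (adjusted p = 9.07e-06 by limma). F12, better known as coagulation factor XII, was -6.41 ± 0.37 (SE, adjusted p = 1.99e-13 by limma), from 2939 to 4374 in vehicle_normal to 3.10 to 114 in HB. Hgfac, the HGF activator, was -5.48 and hepsin (Hpn) -4.38. St14, the membrane protease matriptase, was higher by 5.62 ± 0.37 (SE, adjusted p = 1.89e-12 by limma), from 42.1 to 162 in vehicle_normal to 4019 to 6339 in HB. In HCC these proteases did not pass against vehicle_normal, and St14 was 1.59 above BDCA_nontumor (adjusted p = 0.0304, lost in 6 of its alternatives).

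Of 12 FGF ligands and co-receptors 9 were tested, 4 called higher and 3 lower in HB, with a median of 0.94, where 37.2% of all genes were called higher and 23.1% lower. Klb, the beta-klotho co-receptor of FGFR4, was lower with it at -4.48 ± 0.35 (SE, adjusted p = 5.65e-11 by limma), from 1123 to 1625 in vehicle_normal to 13.4 to 211 in HB. Fgf1 was -2.47 on its brightest probe set, but 1 of 3 probe sets was called and their mean gave -0.83. Fgf21, a liver hormone that also needs beta-klotho, was -1.74 (adjusted p = 0.00491, and 0.178 without the arrays with Xist signal). Fgf20 was higher by 3.07 and Fgf18 by 2.89, both from values below the filter value on all 6 vehicle_normal arrays, so their sizes depend on the pseudocount. Genes this low can pass the filter through the HB arrays alone, so these 2 calls may not be independent of it.

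Of the IGF ligands, Igf2 rose and Igf1 fell in HB. Igf2, a growth factor of the fetal liver, went from 20.8 to 186 in vehicle_normal to 2007 to 10711 in HB, by 5.99 ± 0.55 on the log2 scale (SE, adjusted p = 8.60e-10 by limma). Igf1, the adult liver hormone, went from 13624 to 19683 to 235 to 6847, a difference of -3.52 (adjusted p = 9.30e-06). Their receptor Igf1r did not pass beside them, while the clearance receptor Igf2r was at 0.66 (adjusted p = 0.187). In HCC Igf2 was 1.94 above vehicle_normal (adjusted p = 0.0384, lost in 12 of its alternatives) and 2.47 above BDCA_nontumor (adjusted p = 0.0226, lost in 6).

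**Figure D4:**
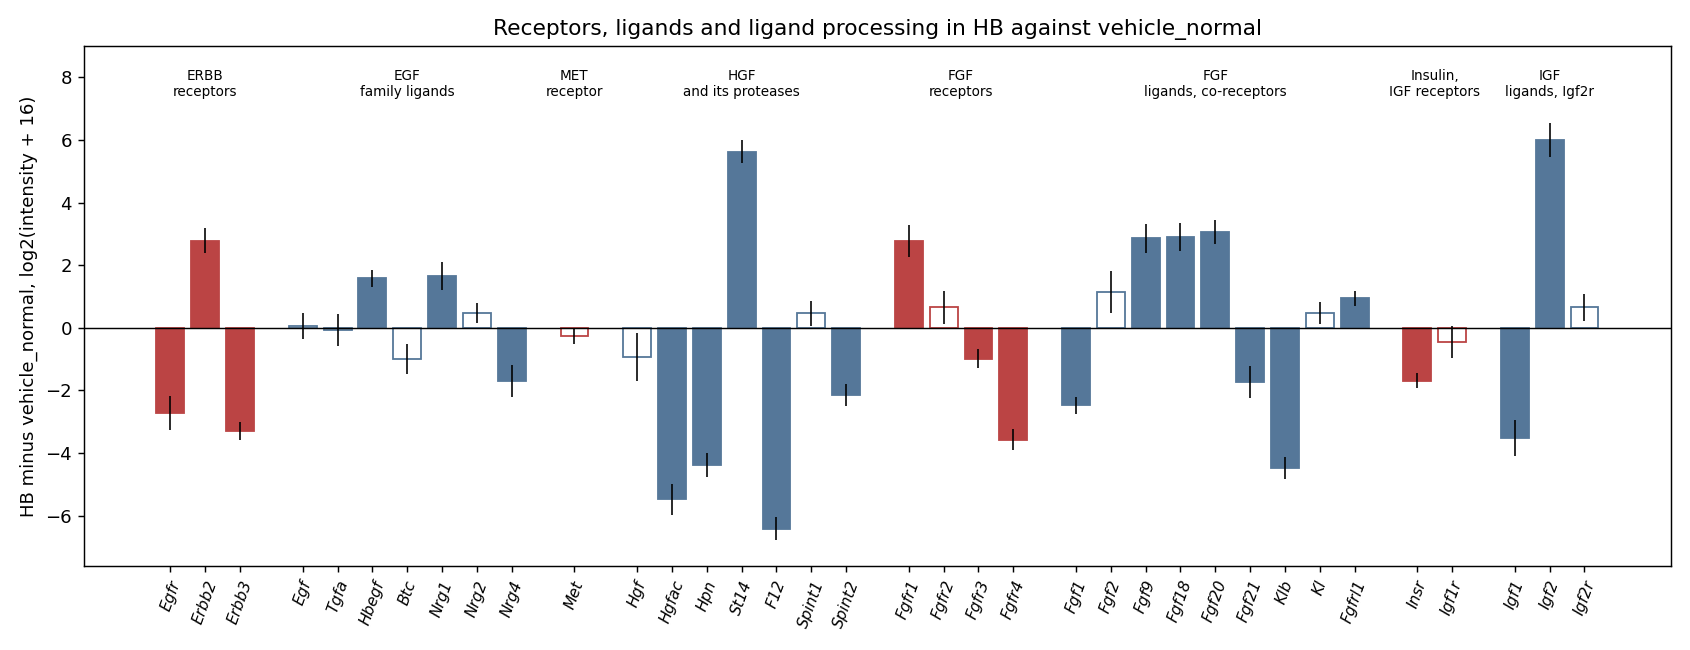
Log2 differences of HB from vehicle_normal for the receptors (red) and, in blue, tested ligands, co-receptors, proteases, protease inhibitors and Igf2r; lines are standard errors. Filled bars passed an adjusted p of 0.05; Igf2 (5.99) and St14 (5.62) lie highest and F12 (-6.41) lowest.

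Downstream of the receptors, 16 of 17 adaptors and proximal effectors were tested, with 6 higher and 2 lower in HB and a median of 0.40, near the 0.34 of all genes, of which 60.3% were called. The count was 4 higher and 4 lower (median 0.03) after median centring and 5 higher and 2 lower (median 0.02) after quantile normalization. Pik3r1, a regulatory subunit of PI3-kinase, was lower at -2.25 ± 0.27 (SE, adjusted p = 8.61e-08 by limma) in all 4 of its probe sets. Plcg1, a phospholipase that binds activated receptors, was higher by 1.62 (2 of 3 probe sets called), and Irs2, a docking protein of the insulin receptor, by 1.62 on its 1 probe set. Pik3ca, a catalytic subunit, was higher by 0.81 (4 of 6 probe sets called), but did not pass after median centring (0.44, adjusted p = 0.0522) or when the arrays carrying Xist were left out (0.66, adjusted p = 0.0598).

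Among inhibitors and feedback regulators 20 of 22 were tested, with 12 higher and 5 lower in HB and a median of 1.05, where 37.2% of all genes were called higher and 23.1% lower. The count was 8 higher and 5 lower (median 0.69) after median centring, 9 and 5 (median 0.61) after quantile normalization and 11 and 3 (median 1.48) without the arrays with Xist signal. Errfi1 (MIG6), which binds and blocks EGFR, was lower at -4.08 ± 0.22 (SE, adjusted p = 5.11e-14 by limma), from 9597 to 16241 in vehicle_normal to 464 to 1283 in HB. Lrig1, which promotes the breakdown of EGF receptors, was higher by 2.43. Of the SH2 adaptors on this list, Grb7, which binds ERBB2, was -4.98 and Grb10, which binds the insulin and IGF1 receptors, was 3.05 higher. Grb10 was the member of this list called in HCC, by 2.42 against vehicle_normal (adjusted p = 4.78e-04) and 2.07 against BDCA_nontumor (adjusted p = 0.00598).

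Of 40 other receptor tyrosine kinases 32 were tested, with 11 higher and 8 lower in HB and a median of 0.31, while 13 did not pass, so the share called lies near the 60.3% of all genes. The median was -0.28 after quantile normalization and -0.06 after median centring, with 11 higher and 9 lower in both. Ret, a receptor of neural and kidney development, rose by 5.40 ± 0.41 (SE, adjusted p = 2.62e-11 by limma), from 3.13 to 50.8 in vehicle_normal to 509 to 3455 in HB. All 6 vehicle_normal arrays lay below the filter value, so the size depended on the pseudocount and was 6.15 with 1 and 4.38 with 64. Among neuroectodermal markers 2 of 3 tested genes were also higher in HB, and their part in the Ret value was not tested. Genes this low outside HB can pass the filter through the HB arrays alone, so these calls are not independent of it. Epha7, an ephrin receptor, was higher by 4.91 and the collagen receptor Ddr1 by 3.41. Csf1r, the macrophage growth factor receptor, was -3.92, and macrophage markers fell with it. Their summed intensity was 278 to 698 in HB and 3745 to 18135 in vehicle_normal, with 6 of 6 markers called lower and none at 0, and their part in the Csf1r value was not tested. In HCC, Ddr1 was the kinase of this list called, by 2.03 above vehicle_normal (adjusted p = 0.00167, 3 of 7 probe sets) and 2.96 above BDCA_nontumor (adjusted p = 1.03e-04).

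**Figure D5:**
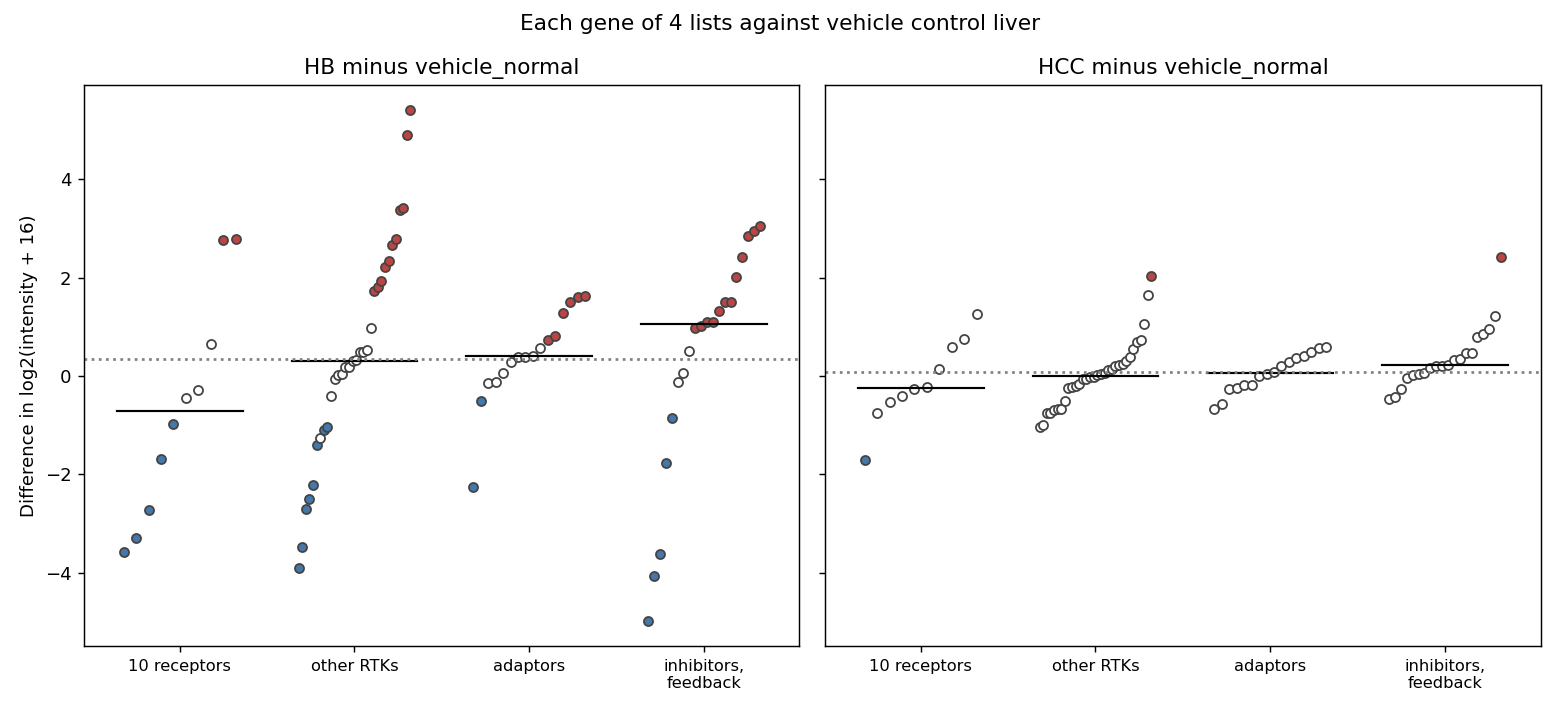
Log2 differences of HB and of HCC from vehicle_normal for each tested gene among the receptors, other receptor tyrosine kinases, adaptors, and inhibitors and feedback regulators. Red and blue points were called higher and lower, open points were not called, bars are list medians and dotted lines are the all-gene medians of 0.34 (HB) and 0.08 (HCC).

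Markers of cell types also differed between HB and vehicle_normal. Hepatocyte markers were lower in HB in 7 of 7 tested genes (median -6.18), with a summed intensity of 544 to 65345 against 175836 to 259768 in vehicle_normal and 111984 to 210621 in HCC. Biliary markers were higher in 5 of 5 (median 2.31, sum 5223 to 11548 against 151 to 688). Endothelial markers were lower in 5 of 7, stellate and fibroblast markers in 6 of 8, and lymphocyte markers in 5 of 5. The stellate and fibroblast markers Acta2 (1.88, adjusted p = 0.0745) and Col1a1 (1.56, adjusted p = 0.0503) had higher means in HB but did not pass by limma. Against BDCA_nontumor these 2 were called higher and 4 of the 8 lower, where 34.1% of all genes were higher and 22.4% lower. Against vehicle_normal, 37.2% of all genes were called higher and 23.1% lower. Of 5 neuroectodermal markers 3 were tested and 2 were higher, Prph, a neuronal filament protein, by 7.75 and Tubb3, a neuronal tubulin, by 4.32, while Elavl3 was at 0.96 (adjusted p = 0.0580). Their summed intensity was 3903 to 11310 in HB and at most 303 in vehicle_normal, and none was at 0. Mean log2 values in vehicle_normal were 4.70 for Prph, 5.31 for Tubb3 and 6.17 for the biliary marker Krt7. Markers this low outside HB can pass the filter through the HB arrays alone, so such calls are not independent of it. The part of these cell types in the receptor values was not tested. The 7 called receptors kept their calls without the 2 HB arrays that carried the most hepatocyte transcripts, with Erbb3 at -3.53, Fgfr4 at -3.55 and Egfr at -2.93. Leaving out these arrays takes HB further from vehicle_normal in hepatocyte markers, so it cannot show the part of hepatocytes.

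For the 3 receptors whose group means varied most, the genes with the nearest pattern were found over the 23 samples by the root mean square difference of centred log2 values. For Erbb3 these were Phyh (0.34) and Upb1 (0.35), for Fgfr4 Psen2 (0.60) and Kalrn (0.60), and for Egfr H6pd (0.81) and Clca3a1 (0.90). The SD of the receptors themselves over these samples was 1.53 for Erbb3, 1.55 for Fgfr4 and 1.96 for Egfr.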

How the data were processed

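From each sample 10 ng of total RNA was amplified, labelled with biotin and hybridised to oligonucleotide arrays, 1 per sample, per the labels' protocols. The deposited values were linear intensities made by the authors with MAS5, per the submitters' processing notes (version not given in the sources used here), and each array had a 2% trimmed mean of 500, checked on the values. Probe sets were named from the platform annotation, in which 34945 of 45101 had 1 gene, 932 several and 9160 none, and 64 were controls. The filter retained the 32702 probe sets whose value exceeded 66.3, the 40th percentile of the whole table, on at least 6 arrays. The kept probe set with the highest mean log2 value stood for each gene. That mean was first taken on linear intensities and was changed after the counts of calls had been seen, to match an earlier analysis of these data; the first form is kept as an alternative.

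One limma 3.58.1 model (R 4.3.3) with a mean per group and a variance trend was fitted to log2(intensity + 16) of 14086 genes in 23 samples, and p-values were two-sided. HCC replicates 3 and 4 were averaged, since their log2 differences over 8986 bright probe sets had a scaled MAD of 0.188. Among all 60 within-group pairs the remaining values were 0.408 to 0.864. The method was tested on simulated data. The members and lists were chosen with earlier results of these data known, so they are not independent evidence. Genes named were all members, up to 4 of each list by adjusted p in HB against vehicle_normal, the direct ligands and Klb, the called list genes in HCC and marker genes. Promoters came from a RefSeq table of GRCm38.p6, and figures from Python 3.11.15 with matplotlib 3.10.9. The number of arrays limits the precision. Alternatives covered pseudocount, scaling, filter, probe sets, variance model, the separate arrays, the replicate block, the pair of groups alone and arrays left out.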

Additional observations from a re-analysis of the deposited data

Results flagged for a closer look

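Among 40 combinations of receptor and group, 5 had an array far from the others by Dixon's criterion on log2(intensity + 16), where chance gives about 1 in 20. Erbb2 was high on vehicle_normal replicate 2, at 6.40 against 4.90 on the next array, and low on HB replicate 2, at 6.72 against 7.73. Fgfr3 was low on HCC replicate 5, at 7.32 against 8.87, and on HB replicate 1, at 7.00 against 8.07. Igf1r was high on vehicle_normal replicate 4, at 9.30 against 7.60.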

How the results depend on the processing

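The 7 calls in HB against vehicle_normal stayed 7 when each array was left out in turn and were 6 to 8 under the alternatives fitted gene by gene. They fell to 4 when all kept probe sets of a receptor had to be called one way. The 1 call in HCC became 2 with that pair of groups fitted alone, 0 without the arrays with Xist signal and 0 when all probe sets had to be called. With the mean of all probe sets it was also 1, but the gene was Met in place of Fgfr4. HCC against BDCA_nontumor went from 0 to 1 without BDCA_nontumor replicate 1 (range 0 to 1). Leaving out arrays gave 6 to 7 calls in HB against BDCA_nontumor and in HB against HCC. Choosing probe sets by linear mean, the added alternative, gave the same counts of receptors and 8527 in place of 8487 calls over all genes in HB against vehicle_normal. Erbb2 was not tested under the stricter filter.

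Fgfr3 in HB against BDCA_nontumor (-0.82, adjusted p = 0.0261) lost its call with the mean of probe sets (-0.35, adjusted p = 0.258), without HB replicate 1 (-0.60, adjusted p = 0.0890) and without BDCA_nontumor replicate 2 (adjusted p = 0.0605) or 3 (adjusted p = 0.0548). In HB against HCC it gained one after quantile normalization (-1.11, adjusted p = 0.00270), median centring (-0.83, adjusted p = 0.0256) and without HCC replicate 5 (-0.91, adjusted p = 0.0110), as did Fgfr2 after quantile normalization (1.43, adjusted p = 0.0303) and without HCC replicate 6 (1.67, adjusted p = 0.00959). Met gained one in HB against vehicle_normal after median centring (-0.64, adjusted p = 0.0329). The median of all genes in that comparison was 0.34, against -0.01 after quantile normalization and -0.03 after median centring, and the share of higher calls went from 61.7% to 48.9% and 46.1%. The calls over all genes in HCC against vehicle_normal went from 1019 to 193 without the arrays with Xist signal. The causes were not tested.

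Replicate numbers recur across groups. Over 36 same-number pairs the median correlation of deviations was -0.0048, 2 exceeded 0.1 and the highest was 0.505. A median cannot decide whether single arrays share an animal, and pairing under other numbers was not tested. With the replicate number as a block, the counts were 7 in HB against vehicle_normal, 1 in HCC, 7 in HB against BDCA_nontumor and 6 in HB against HCC, as without it.

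No called value changed sign, but 55 alternatives turned the sign of a difference that passed neither before nor after. Without the arrays with Xist signal, Igf1r was 0.057 in HB against vehicle_normal, Egfr -0.42, Fgfr1 -0.47 and Igf1r 0.29 in HCC, and Egfr -0.22, Fgfr1 -0.071, Fgfr2 0.28 and Fgfr3 0.17 in BDCA_nontumor, and Met was 0.067 in HB against BDCA_nontumor. After quantile normalization Egf was -0.50 in HB and Erbb3 0.057 in BDCA_nontumor against vehicle_normal, and Met 0.091 and Igf1r -0.21 in HB against BDCA_nontumor. After median centring Egf was -0.31 in HB against vehicle_normal and Insr -0.0057 in HCC against BDCA_nontumor. The mean of probe sets gave Tgfa 0.45 in HB and Insr -0.074 in HCC against vehicle_normal, and Igf1r -0.026 in HB and Insr -0.12 in HCC against BDCA_nontumor. Without HB replicates 4 and 5, Egf was -0.037 against vehicle_normal and Met 0.14 against BDCA_nontumor. With 24 separate arrays, with or without the block, Insr was -0.019 in HCC against BDCA_nontumor.

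Leaving out each array turned signs over these ranges. Against vehicle_normal they were -0.059 to 0.21 for Egf and -0.35 to 0.28 for Tgfa in HB, -0.062 to 0.22 for Insr, -1.02 to 0.016 for Fgfr2 and -0.47 to 0.18 for Igf1r in HCC, and -0.11 to 0.10 for Erbb3 and -0.43 to 0.19 for Fgfr2 in BDCA_nontumor. Against BDCA_nontumor they were -0.26 to 0.067 for Met in HB, and in HCC -0.14 to 0.40 for Erbb2, -0.15 to 0.12 for Insr, -0.35 to 0.017 for Egfr, -0.44 to 0.09 for Fgfr3, -0.85 to 0.19 for Fgfr2 and -0.40 to 0.16 for Fgfr1. For Igf1r in HB against HCC the range was -0.64 to 0.21.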
